A study of Mus musculus with 6 samples.

Results

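Myosin light chains are small calmodulin-related proteins that bind the neck of a myosin heavy chain. The 10 genes described here were taken from the count table by their symbols, out of 55804 rows. Of these, 5 encode chains of striated muscle (Myl1, Myl2, Myl3, Myl4 and Mylpf). The other 5 were grouped here as nonmuscle and smooth muscle chains (Myl6, Myl6b, Myl9, Myl12a and Myl12b). The muscle and nonmuscle sums, shares and medians below rest on that grouping. Whether Myl6b also served muscle myosin in these cells was not tested. RNA was measured in C2C12 cells, a mouse myoblast line that fuses into myotubes when serum is lowered, after 3 days in differentiation medium. The Ctrl-gRNA group of 3 libraries carried a control guide RNA and had the genotype label WT. The Prr33-gRNA group of 3 libraries came from a line in which CRISPR/Cas9 was directed at Prr33, and its genotype label gave that gene as knocked down. Both groups received the same medium, and no label named separate clones or separate cultures. The p-values below therefore reflect library-to-library spread only, and that spread may be technical. The comparison asks how light chain expression differed between the guides at this stage of differentiation.

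Each myosin heavy chain carries an essential light chain, which stiffens the lever arm, and a regulatory light chain, which sits at its base. In skeletal muscle the essential chains come from Myl1 (fast adult) and Myl4 (embryonic and atrial), with Myl3 in slow and ventricular muscle. The regulatory chains come from Mylpf (fast) and Myl2 (slow and ventricular). Nonmuscle and smooth muscle myosins use Myl6 or Myl6b as the essential chain and Myl9, Myl12a or Myl12b as the regulatory chain. Phosphorylation of the regulatory chain by dedicated kinases switches on nonmuscle and smooth muscle myosin and adjusts force in striated muscle.

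Total counts per library ran from 17006381 to 19471762. Prr33 itself, the targeted gene, counted 61.4, 60.0 and 54.3 CPM (the count relative to the TMM-scaled library total) in the Ctrl-gRNA libraries against 43.1, 45.8 and 42.4 CPM in the Prr33-gRNA libraries. Its transcript was thus lower but still present (log2 fold change -0.42, SE 0.06). The body of Prr33 overlaps that of Tnnt3 on the other strand, which averaged 1663 CPM in Ctrl-gRNA and 1024 CPM in Prr33-gRNA. Whether the counting used strand is not stated in the labels, and the part of Tnnt3 reads in the Prr33 counts was not tested. Library pairs of the same group had a chi-square per gene of 2.87 to 5.62, above what counting noise alone gives. Skeletal muscle markers were high in all libraries, summing to 29513 to 30124 CPM in Ctrl-gRNA against 17815 to 18571 CPM in Prr33-gRNA. Of these, 7 of 8 were lower and 1, Ckm, higher. For all markers, lower and higher mean an adjusted p below 0.05 in edgeR's quasi-likelihood test. By that rule 26.6% of all genes tested were lower and 25.5% higher. Each of the blood, endothelial and adipocyte marker lists summed to at most 1.82 CPM in any library. Of 7 cardiac markers 4 could be tested and 3 were lower, with summed levels of 1779 to 1867 CPM in Ctrl-gRNA and of 1124 to 1226 CPM in Prr33-gRNA. Nearly all of that sum was Tnnt2, which embryonic skeletal muscle also expresses, and Myl7 was at 0 in all 6 libraries. Besides Tnnt2, the lower cardiac markers were Myh6 and Gata4. Both lie on chromosome 14, where 397 of 472 tested genes were lower, and the part of that in their change was not tested. All libraries came from a myoblast line, and how these markers relate to the changes of Myl2 and Myl4 was not tested. In bulk RNA, fewer cells of a type and less RNA per cell cannot be told apart, and this applies to every result below.

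RefSeq promoter windows were found for 10 of the 10 genes (12 windows, GRCm38.p6), and the bases upstream of 3 of them are shown because they carry the motifs of the factors that muscle and smooth muscle genes share. Capitals mark the motif. In Mylpf the marked letters are a CAGCTG E-box, the core read by the myogenic basic helix-loop-helix factors. In Myl9 they are a CArG box, the site of serum response factor. In Myl3 they are a CAGGTG E-box followed by a CArG box.
Mylpf promoter, chr7:127211358-127211607, plus strand, ending at the base before the RefSeq start: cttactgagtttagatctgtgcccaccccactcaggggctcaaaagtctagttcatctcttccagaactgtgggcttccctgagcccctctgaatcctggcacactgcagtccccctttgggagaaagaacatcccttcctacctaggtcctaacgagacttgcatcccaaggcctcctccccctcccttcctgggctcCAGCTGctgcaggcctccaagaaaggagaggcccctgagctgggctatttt
Myl9 promoter, chr2:156775214-156775419, plus strand, without the annotated exon next to the start: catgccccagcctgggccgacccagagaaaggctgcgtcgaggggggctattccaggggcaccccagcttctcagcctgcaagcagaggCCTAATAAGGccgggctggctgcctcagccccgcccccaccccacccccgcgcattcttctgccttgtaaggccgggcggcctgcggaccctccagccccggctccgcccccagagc
Myl3 promoter, chr9:110763428-110763645, plus strand, without the annotated exon next to the start: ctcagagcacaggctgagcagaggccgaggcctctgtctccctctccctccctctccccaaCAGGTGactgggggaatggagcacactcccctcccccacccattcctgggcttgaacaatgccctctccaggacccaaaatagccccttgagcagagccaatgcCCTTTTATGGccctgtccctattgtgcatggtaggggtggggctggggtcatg
Over both strands of the 250 bases upstream of the start, a CArG box stood in 3 of the 12 light chain windows (Myl9, Myl3 and the second window of Myl6) and in 1.47% of all 32851 windows. CAGCTG stood in 4 of the 12 (Myl1, the second window of Myl2, Mylpf and Myl12a) and in 13.0% of all windows. An E-box of the general form CANNTG, which includes CAGCTG and CAGGTG, stood in 66.2% of all windows, and a MEF2 site stood in none of the 12 and in 2.92% of all. A match only says that these letters are there. For Myl4 the table holds the window at its first annotated start alone, and its other coding transcripts start further downstream. Both windows of Myl2 belong to RefSeq starts (122092724 and 122093189) that lie upstream of the counted Myl2 gene. That gene begins at 122100951, and the bases next to its start were not searched. The RefSeq starts of Mylpf (127211608) and Myl3 (110763678) lie downstream of the first annotated bases of their counted genes (127208890 and 110741861). The bases upstream of those first positions were not searched. Myl1, whose chains arise from alternative starts, also has a single window.

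All of the 9 light chain genes with enough counts to be tested were lower in Prr33-gRNA, at an adjusted p below 0.05 in edgeR's quasi-likelihood test over 14651 genes. Among all genes tested, 26.6% were lower by the same rule and 25.5% higher, 52.1% in either direction. Of all calls 49.0% were thus higher, and 61.8% without scaling factors. Abundant genes were called more often. Among the 2420 genes tested with a mean of at least 100 CPM, 33.0% were lower and 38.3% higher, with a median log2 fold change of 0.03. Groups did not overlap in any of the 9 genes, each Prr33-gRNA library lying below each Ctrl-gRNA library, whereas 29.3% of all genes tested were separated in that direction. The log2 fold changes ran from -0.18 in Myl12a to -1.95 in Myl9. The median was -0.71 over the 4 tested muscle genes and -0.64 over the 5 nonmuscle genes, beside -0.00 over all genes tested, whose quartiles were -0.32 and 0.24. Of the 9 calls, 7 held in every alternative run, that of Myl12a was lost in 1 and that of Myl12b in 10. The tenth gene, Myl3, was below the count filter.

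**Figure D1:**
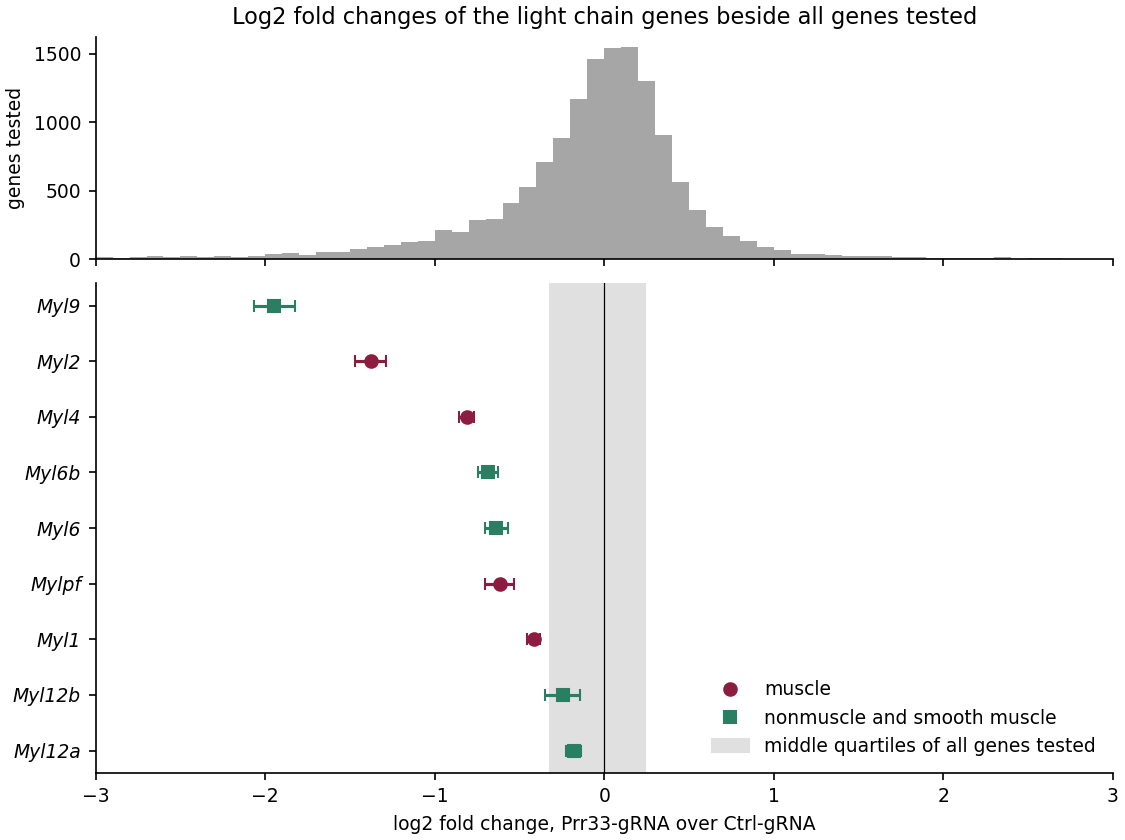
Log2 fold changes (Prr33-gRNA over Ctrl-gRNA) of the 9 tested light chain genes, with bars of 1 SE, below a histogram of the same quantity for the genes tested; grey marks the middle quartiles of all genes, -0.32 to 0.24. The points of Myl9 and Myl2 lie farthest to the left, at -1.95 and -1.38, and those of Myl12a and Myl12b lie inside the grey band.

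Mylpf, the fast regulatory chain, lies on chromosome 7 from 127208890 to 127214298 (mm10). On the FPKM scale (counts per gene length and library) it was the most abundant light chain transcript in both groups. Its libraries counted 2777, 2597 and 2558 CPM in Ctrl-gRNA against 1823, 1853 and 1499 CPM in Prr33-gRNA. The groups did not overlap, and Prr33-gRNA replicate 3 was the lowest of the 6. The mean fell from 2644 ± 117 to 1725 ± 196 CPM (SD, n = 3 each), a log2 fold change of -0.62 (SE 0.09, edgeR adjusted p = 9.90e-04). That left 65.2% of the control level.

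Myl2, the slow and cardiac regulatory chain on chromosome 5 (122100951 to 122113472), was far less abundant per length and had the larger log2 fold change of the regulatory pair. Its libraries counted 87.4, 71.1 and 64.8 CPM in Ctrl-gRNA against 27.8, 29.0 and 29.1 CPM in Prr33-gRNA. The Ctrl-gRNA libraries spread more widely than the Prr33-gRNA libraries, and the lowest of them was still above every Prr33-gRNA library. The mean fell from 74.4 ± 11.7 to 28.6 ± 0.732 CPM (log2 fold change -1.38, SE 0.09, edgeR adjusted p = 2.36e-10), or to 38.5% of control. Only 5.21% of all genes tested had a lower log2 fold change. An exon stretch of 60 bases is shared with Ccdc63 on the other strand, and whether the counting used strand is not stated in the labels.

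Myl4, the embryonic essential chain on chromosome 11 (104550663 to 104595753), ran at 1964, 1918 and 1815 CPM in Ctrl-gRNA. In Prr33-gRNA it ran at 1080, 1138 and 1027 CPM. Every Prr33-gRNA library was well below the lowest control library. The mean fell from 1899 ± 76.4 to 1082 ± 55.3 CPM, a log2 fold change of -0.81 (SE 0.04, edgeR adjusted p = 1.40e-17), leaving 57.0% of control.

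Myl1, which encodes the fast essential chains on chromosome 1 (66924295 to 66945404), showed the smallest change of the 4 tested muscle genes. Its libraries counted 1643, 1597 and 1599 CPM in Ctrl-gRNA against 1206, 1233 and 1191 CPM in Prr33-gRNA. Libraries of each group lay close together, with a wide gap between the groups. The mean of 1613 ± 26.2 CPM was 1.33-fold lower in Prr33-gRNA (log2 fold change -0.41, SE 0.04, edgeR adjusted p = 3.12e-11). The annotation lists 8 transcripts of Myl1, 5 of them coding. Gene counts do not separate the long and short fast chains that arise from its alternative starts.

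A processed pseudogene of Myl1, Mylf-ps on chromosome 12 (101221997 to 101222417), carried many reads as well. Of the 372 stretches of 50 bases in the pseudogene, 242 also occur in the principal Myl1 transcript, and 32.1% of the stretches of that transcript occur in the pseudogene. Mylf-ps counted 866, 861 and 919 CPM in Ctrl-gRNA against 829, 788 and 814 CPM in Prr33-gRNA. The log2 fold change of the pseudogene, -0.12 (SE 0.04, edgeR adjusted p = 0.0118), lay nearer to 0 than that of Myl1. Of the summed reads, Mylf-ps took 35.3% ± 1.03 in Ctrl-gRNA against 40.1% ± 0.965 in Prr33-gRNA (SD, n = 3 each). Which locus these reads came from was not tested, and how reads that match several loci were counted is not stated in the labels, which bears on Myl1, Myl6, Myl12a and Myl12b alike. With both rows summed before the fit, a sum chosen with the values known, the log2 fold change came to -0.30 (SE 0.04, edgeR adjusted p = 1.92e-08).

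Myl3, the slow and ventricular essential chain on chromosome 9 (110741861 to 110769798), was close to absent. It had 5, 5 and 0 counts in the Ctrl-gRNA libraries against 0, 1 and 0 in the Prr33-gRNA libraries. A single library needs 3 counts, or 0.150 to 0.182 CPM, before 0 can be told from presence, and 2 libraries of Ctrl-gRNA passed that level. No test was made of so few counts.

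**Figure D2:**
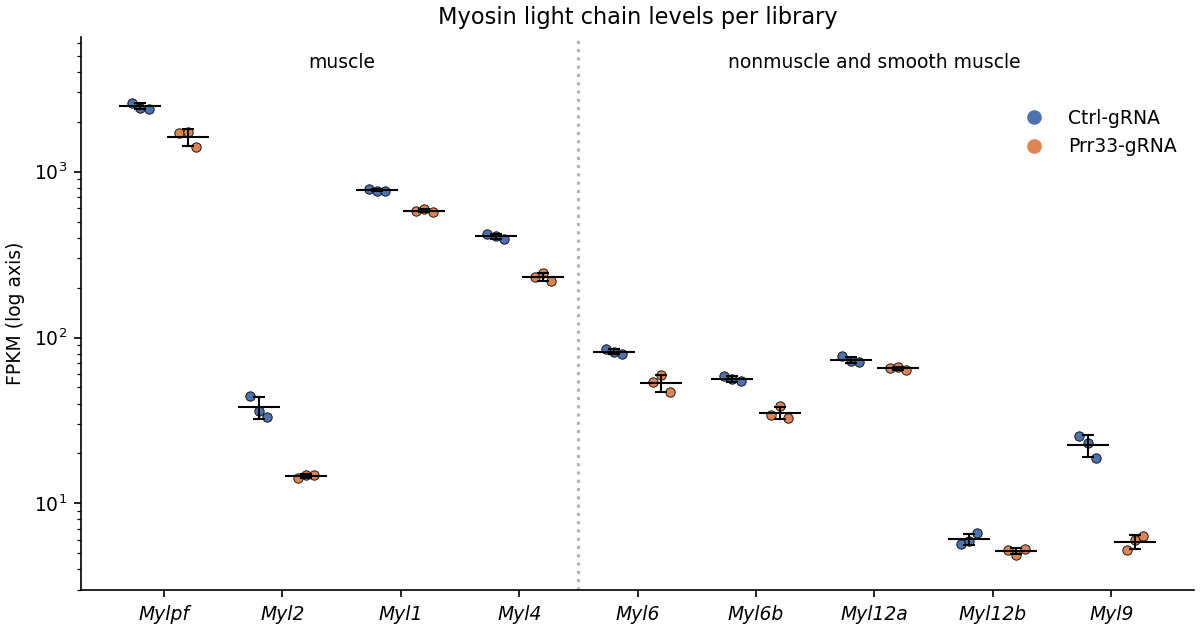
FPKM per library (log axis) of the 9 tested light chain genes in Ctrl-gRNA (blue) and Prr33-gRNA (orange), muscle genes left of the dotted line; long bars give the mean and short bars 1 SD over 3 libraries. In each gene the 3 Prr33-gRNA points sit below the 3 Ctrl-gRNA points, and Mylpf, Myl1 and Myl4 stand above 200 FPKM while the nonmuscle genes stay below 100.

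Myl6 encodes the common essential chain of nonmuscle and smooth muscle myosin, and Myl6b a close relative. They lie head to tail on chromosome 10, Myl6 from 128490860 to 128494145 and Myl6b from 128494157 to 128498685, with 11 bases between them. Myl6 counted 274, 263 and 254 CPM in Ctrl-gRNA against 171, 189 and 149 CPM in Prr33-gRNA. Prr33-gRNA replicate 3 was again the lowest. The mean fell from 264 ± 9.93 to 170.0 ± 20.1 CPM (log2 fold change -0.64, SE 0.07, edgeR adjusted p = 3.53e-06), or to 64.3% of control. Of the 50-base stretches of its principal transcript, 53.2% occur in at least 1 of 5 pseudogenes. Summed with those pseudogenes, a sum chosen with the values known, Myl6 had a log2 fold change of -0.63 (SE 0.07).

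Myl6b stood lower per length than Myl6 and fell as well. Its libraries counted 109, 104 and 101 CPM in Ctrl-gRNA against 63.3, 71.4 and 60.7 CPM in Prr33-gRNA. The groups were separate, and the mean fell from 105 ± 4.21 to 65.1 ± 5.57 CPM (log2 fold change -0.69, SE 0.06, edgeR adjusted p = 6.11e-12). This left 62.1% of control. Only 0.921% of its 50-base stretches occur in another gene's transcripts, so that its reads are almost free of that limit.

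Myl9, the regulatory chain of smooth muscle on chromosome 2 (156775420 to 156781658), had the largest change of the 9 tested genes. It counted 29.9, 27.2 and 21.9 CPM in the Ctrl-gRNA libraries. It counted 6.08, 7.02 and 7.39 CPM in the Prr33-gRNA libraries, each under the lowest control. The mean fell from 26.3 ± 4.03 to 6.83 ± 0.676 CPM, a log2 fold change of -1.95 (SE 0.12, edgeR adjusted p = 1.77e-15) that left 26.0% of control. Over all genes tested, 3.20% had a lower log2 fold change. Across 16 alternatives its log2 fold change stayed between -2.06 and -1.77.

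Smooth muscle markers were listed beside Myl9 because smooth muscle is where it is best known. Myh11, the smooth muscle heavy chain, and Cnn1 were near 0, at means of 0.155 and 0.215 CPM in Ctrl-gRNA. Myocd was at 0 in Ctrl-gRNA and had 1, 0 and 4 counts in the Prr33-gRNA libraries. Acta2, which differentiating myoblasts also express, fell from 5814 ± 6.89 to 4748 ± 70.5 CPM (log2 fold change -0.29), and Smtn fell from 119 ± 2.89 to 100.4 ± 3.81 CPM (-0.25). Of 7 smooth muscle markers, 4 could be tested and 2 were lower. The other tested markers, Tagln (log2 fold change -0.38) and Lmod1 (0.40), were not called, and their groups overlapped. Summed levels were 5933 to 5942 CPM in Ctrl-gRNA against 4795 to 4939 CPM in Prr33-gRNA, nearly all of it Acta2. Fibroblast markers moved further: 3 of 5 could be tested and 3 were lower, with sums of 185 to 207 CPM in the Ctrl-gRNA libraries and 16.1 to 18.3 CPM in those of Prr33-gRNA. Most of that sum was Col1a1, and Lum was at 0 in all 6 libraries. Beside these marker counts, 26.6% of all genes tested were lower. All libraries came from a myoblast line, and how these markers relate to the change of Myl9 was not tested.

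Myl12a and Myl12b, neighbours on chromosome 17, encode almost the same regulatory chain, and their coding sequences are 96.5% identical (498 of 516 bases). Myl12a (70993656 to 71002878) counted 261, 244 and 239 CPM in Ctrl-gRNA against 219, 223 and 216 CPM in Prr33-gRNA. The gap between the groups was narrow but complete. Its mean went from 248 ± 11.5 to 219 ± 3.69 CPM, a log2 fold change of -0.18 (SE 0.04, edgeR adjusted p = 0.00101), and 33.6% of all genes tested had a lower one. Without scaling factors the value was -0.09 and the call was lost (adjusted p = 0.0852).

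Myl12b (70973133 to 70990890) had few reads, 246 to 309 counts per library. Its libraries counted 16.0, 16.6 and 18.4 CPM in Ctrl-gRNA against 14.6, 13.6 and 14.7 CPM in Prr33-gRNA. The lowest control and the highest Prr33-gRNA library lay close to each other. The mean went from 17.0 ± 1.24 to 14.3 ± 0.627 CPM (log2 fold change -0.25, SE 0.10, edgeR adjusted p = 0.0478). The call was lost in 10 of 18 alternatives, among them DESeq2 (adjusted p = 0.0866) and limma-voom (0.0508). It was also lost on omission of Ctrl-gRNA replicate 2 or 3 (edgeR adjusted p = 0.0777 and 0.193) or of any Prr33-gRNA library (0.0638 to 0.126). Those 18 include the sum with Myl12a (edgeR adjusted p = 6.13e-04) and the sum with Myl12a and Gm49909 (6.63e-06). Most reads of both sums were those of Myl12a, so that they cannot decide on Myl12b alone.

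The exons of both genes overlap those of Gm49909, another annotated gene, which GENCODE M21 also names Myl12b. The row of Gm49909 is not part of the levels, order and shares of Myl12a and Myl12b given below. Within the exons of Myl12a, 669 bases also belong to Gm49909 or, on the other strand, to Myom1, and within those of Myl12b 739 bases belong to Gm49909. Gm49909 counted 1042, 1419 and 1521 reads in the Ctrl-gRNA libraries against 1164, 906 and 1032 in the Prr33-gRNA libraries. Those groups overlapped, and it was not called (log2 fold change -0.49, SE 0.23, edgeR adjusted p = 0.157). With the 3 rows summed before the fit, a sum chosen with the values known, the log2 fold change came to -0.25 (SE 0.04, edgeR adjusted p = 6.63e-06).

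Levels of different genes were compared on the deposited FPKM scale, which divides by gene length. In Ctrl-gRNA the order was Mylpf (2473 ± 103 FPKM), Myl1 (773 ± 11.0), Myl4 (407 ± 15.2), Myl6 (82.3 ± 2.87), Myl12a (73.4 ± 3.20), Myl6b (56.3 ± 2.11), Myl2 (37.9 ± 5.83), Myl9 (22.5 ± 3.38) and Myl12b (6.09 ± 0.463), with Myl3 last. No neighbours in that order overlapped between libraries. In Prr33-gRNA the level of Myl12a (65.1 ± 1.25 FPKM) stood above that of Myl6 (53.2 ± 6.41 FPKM), and the ranges of Myl9 (5.87 ± 0.571 FPKM) and Myl12b (5.16 ± 0.217 FPKM) overlapped. With principal transcript lengths, which are far shorter for Myl6, Myl6 stood above Myl12a in both groups (397 against 128 as CPM per kilobase in Ctrl-gRNA, 256 against 113 in Prr33-gRNA). Among 21933 protein-coding genes, Mylpf ranked 5 by mean FPKM in Ctrl-gRNA against 10 in Prr33-gRNA. Myl9 went from rank 2219 to rank 6541 and Myl2 from 1228 to 3355, while Myl1 ranked 28 and 25.

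The order of Myl1 and Myl4 depends on the length used as well. The table counts 4637 bases for Myl4 and 2074 for Myl1, far more than their principal transcripts of 879 and 803 bases. With the principal lengths, a scale chosen with the values known, Myl4 stood above Myl1 in Ctrl-gRNA (2160 against 2009 as CPM per kilobase). In Prr33-gRNA it stood below Myl1 (1231 against 1507). These values leave out the reads on Mylf-ps. Summed with that row, a sum chosen with the values known, Myl1 counted 2495 CPM against 1899 CPM for Myl4 in Ctrl-gRNA. In Prr33-gRNA the values were 2020 and 1082 CPM. With those reads Myl1, whose principal transcript is the shorter, would stand above Myl4 in both groups. The shares of Myl1 and Myl4 given below leave them out as well. Whichever length was used, Myl4 was the smaller part of the pair in Prr33-gRNA. On FPKM, the share of Myl4 in the sum of both was 34.8%, 34.9% and 33.7% in Ctrl-gRNA against 28.6%, 29.2% and 27.8% in Prr33-gRNA. This share did not overlap between the groups.

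Muscle genes made up nearly all of the light chain pool in both groups. Their share of the summed FPKM was 93.8%, 93.8% and 94.0% in the Ctrl-gRNA libraries against 94.0%, 93.7% and 93.5% in the Prr33-gRNA libraries. The groups overlapped, with means of 93.9% ± 0.0827 and 93.7% ± 0.254 (SD, n = 3 each). On counts without length (90.4% and 89.5%) and on principal transcript lengths (92.2% and 91.9%) the share was lower in Prr33-gRNA without overlap. Summed muscle light chains went from 3691 ± 132 to 2451 ± 210 FPKM, or 66.4% of control, and summed nonmuscle light chains from 241 ± 10.9 to 165 ± 10.3 FPKM, or 68.4% of control. These sums, shares and ratios are descriptions without a test. Together the 10 genes took 0.647% to 0.694% of all counts in Ctrl-gRNA against 0.431% to 0.494% in Prr33-gRNA.

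Within each role the make-up of the pool did differ between the groups. Among essential chains the share of Myl1 was 58.6% ± 0.721 in Ctrl-gRNA against 64.5% ± 1.11 in Prr33-gRNA, and that of Myl4 was 30.9% ± 0.587 and 25.8% ± 0.432. Neither share overlapped between the groups. Among regulatory chains Mylpf took 94.7% ± 0.222 and 94.7% ± 0.606, which overlapped on FPKM but not on counts (87.8% and 86.4%). Myl2 took 1.36% to 1.68% of the sum of Myl2 and Mylpf in Ctrl-gRNA against 0.824% to 1.05% in Prr33-gRNA, without overlap. Among the nonmuscle regulatory chains, Myl9 took 23.5%, 22.9% and 19.5% in Ctrl-gRNA against 6.92%, 7.81% and 8.38% in Prr33-gRNA. The difference of that share between the groups (Prr33-gRNA minus Ctrl-gRNA) was -14.3 percentage points on FPKM, -6.16 on counts and -9.78 on principal transcript lengths. Gm49909, which overlaps the exons of Myl12a and Myl12b, was not counted among these chains. It stood at 64.2 ± 15.5 FPKM in Ctrl-gRNA and 45.7 ± 6.02 FPKM in Prr33-gRNA. With it the Myl9 share would be smaller in both groups. The summed muscle essential chains stood at 0.470 ± 0.0111 of the summed muscle regulatory chains in Ctrl-gRNA and at 0.502 ± 0.0487 in Prr33-gRNA, and with principal transcript lengths at 1.17 and 1.20.

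**Figure D3:**
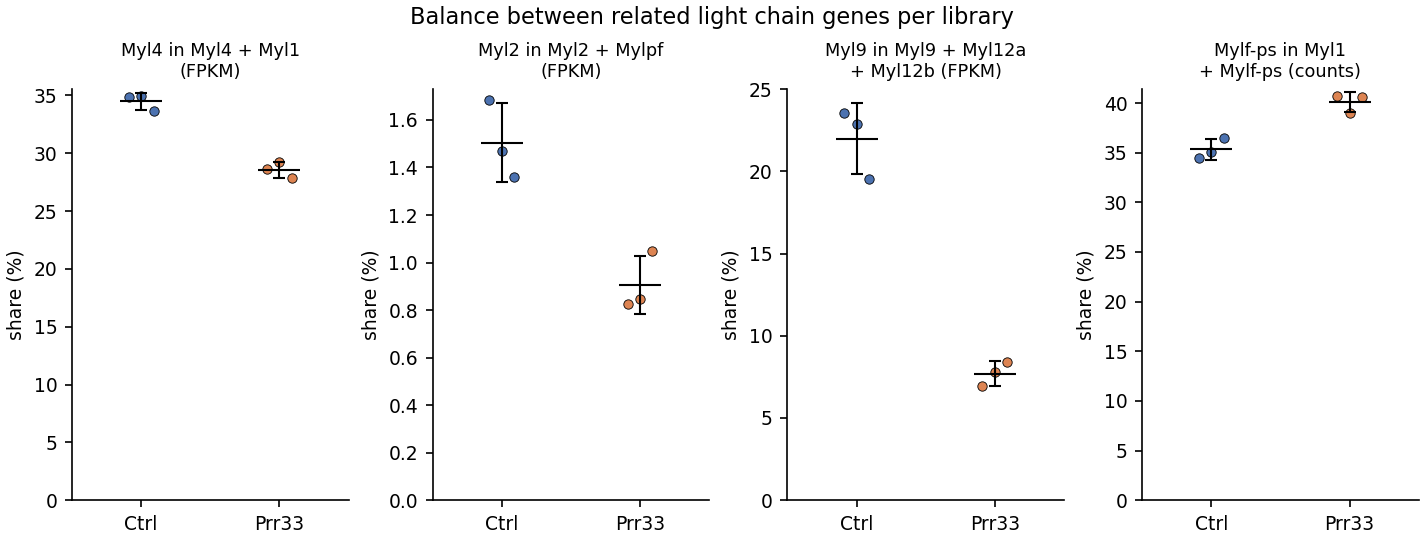
Percent of a pair or trio of related genes taken by 1 member, per library (points) with mean and SD (bars, 3 libraries per group); the first 3 panels use FPKM and the last uses counts. Myl4, Myl2 and Myl9 take smaller shares in Prr33-gRNA and the Myl1 pseudogene Mylf-ps a larger share (40.1% against 35.3%), without overlap between the groups.

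Myosin heavy chains, which the light chains bind, changed more widely. Of 10 muscle heavy chain genes 8 could be tested, and 6 were lower and 2 higher. Embryonic Myh3, the most abundant, counted 12617, 12639 and 12745 CPM in Ctrl-gRNA against 5371, 5389 and 5065 CPM in Prr33-gRNA, a log2 fold change of -1.26. Fast Myh1 fell from 589 ± 33.8 to 303 ± 14.5 CPM (-0.96), Myh2 from 15.3 ± 2.58 to 5.25 ± 0.270 CPM (-1.54) and neonatal Myh8 from 58.1 ± 0.444 to 41.3 ± 2.37 CPM (-0.49). Fast Myh4 went the other way, from 34.2 ± 2.96 to 178 ± 5.30 CPM (2.38). Myh7b rose by 0.24 (edgeR adjusted p = 0.0345), a call lost in 7 of 16 alternatives. Slow Myh7, whose usual partners are Myl2 and Myl3, fell from 226 ± 10.6 to 13.3 ± 1.18 CPM (-4.09), and cardiac Myh6 fell from 30.9 ± 1.94 to 1.81 ± 0.339 CPM (-4.08). Both lie on chromosome 14, where 397 of 472 tested genes were lower and the median log2 fold change was -0.88, against 0.01 on the other chromosomes. The part of that in the change of Myh7 and Myh6 was not tested, and no light chain gene described here lies on chromosome 14.

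Summed muscle heavy chains were 2199, 2216 and 2234 FPKM in Ctrl-gRNA against 974, 976 and 917 FPKM in Prr33-gRNA. That is 43.1% of control, against 66.4% for the muscle light chains, so the ratio of light to heavy chain FPKM was 1.67 ± 0.0723 in Ctrl-gRNA against 2.56 ± 0.133 in Prr33-gRNA. The ratio did not overlap between the groups, running from 1.61 to 1.75 and from 2.41 to 2.66. With Myh6 and Myh7 omitted, a choice made with the values known, the ratios were 1.69 ± 0.0733 and 2.57 ± 0.133. Most of the heavy chain sum was Myh3 (2078 FPKM in Ctrl-gRNA and 869 FPKM in Prr33-gRNA). Most of the light chain sum was Mylpf (2473 and 1621 FPKM), so the ratio mainly compares those genes. Its level also depends on gene length, and it was not computed with principal transcript lengths. Nonmuscle heavy chains summed to 129 ± 6.02 and 98.3 ± 5.94 FPKM, or 76.4% of control. Of their 3 tested genes, Myh9 fell from 1435 ± 70.0 to 1042 ± 65.3 CPM (-0.46), the rare Myh14 fell by 1.30 on the log2 scale, and Myh10 was not called (-0.04).

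**Figure D4:**
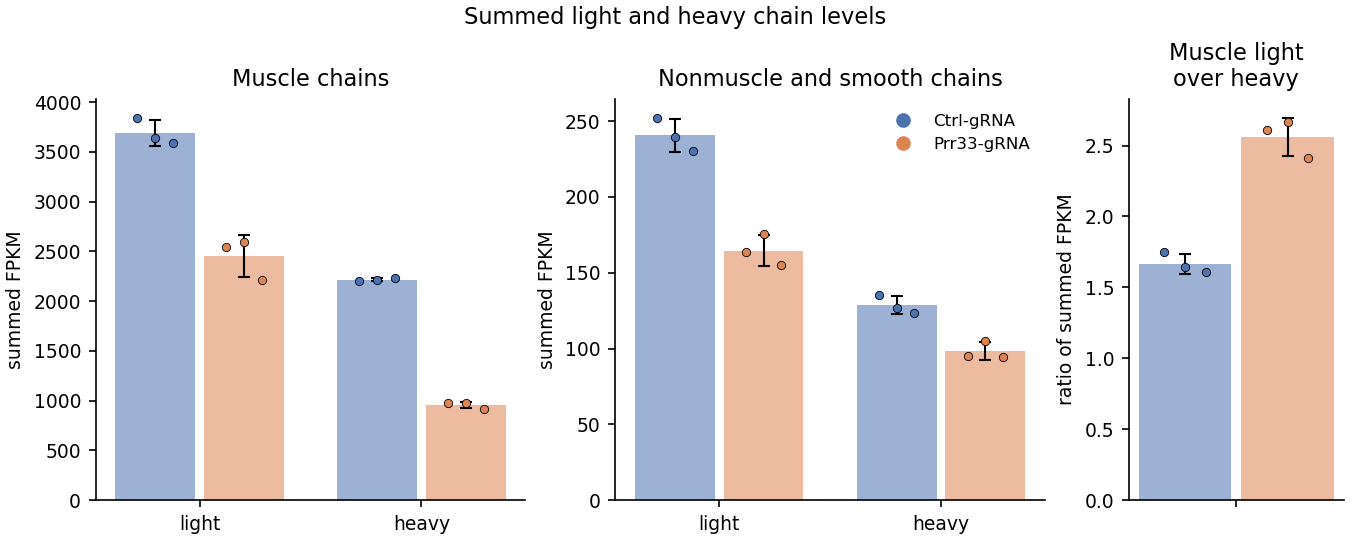
Summed FPKM of light and heavy chain genes, muscle (left) and nonmuscle and smooth muscle (middle), and the ratio of the muscle sums (right); bars start at 0 and give means, error bars 1 SD and points the 3 libraries per group, Ctrl-gRNA in blue and Prr33-gRNA in orange. The muscle heavy chain sum is 43.1% of control in Prr33-gRNA and the muscle light chain sum 66.4%.

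The remaining partners were read from lists of genes that phosphorylate, dephosphorylate, fold or regulate the light chains. Over all 58 partner genes, heavy chains included, 47 could be tested, of which 21 were lower and 14 higher. The shares over all genes tested, 26.6% lower and 25.5% higher, are the background for each partner count given here. The other light chain genes Myl7 and Myl10 were at or near 0 counts. Of 13 genes for regulatory chain kinases 11 could be tested, and 2 were lower and 5 higher. Mylk2, the kinase of skeletal muscle, counted 36.8, 40.8 and 37.6 CPM in Ctrl-gRNA against 12.5, 10.5 and 14.3 CPM in Prr33-gRNA. It fell without overlap (log2 fold change -1.62, edgeR adjusted p = 4.44e-16). Mylk4 rose from 36.9 ± 0.939 to 56.1 ± 1.90 CPM (0.60). The kinase of smooth muscle and nonmuscle cells, Mylk, had a log2 fold change of 0.27 and was not called (edgeR adjusted p = 0.109). Without Prr33-gRNA replicate 3 it was called (0.42, edgeR adjusted p = 0.0136), and the same holds without scaling factors. Mylk3 rose from 0.486 ± 0.375 to 1.16 ± 0.425 CPM with overlapping groups, a call lost in 7 of 15 alternatives.

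Genes of the myosin phosphatase, which removes the phosphate from the regulatory chain, moved little. Of 5 tested, the catalytic subunit Ppp1cb rose from 218 ± 4.09 to 263 ± 13.6 CPM (0.27). The inhibitor Ppp1r14b was lower (-0.17, edgeR adjusted p = 0.0459) with overlapping groups and lost that call in 8 of 16 alternatives, and the targeting subunit Ppp1r12a was not called (0.04) except, as higher, without scaling factors (0.13). Of the calmodulin genes, which encode the calcium sensor of the Mylk kinases, Calm3 fell from 277 ± 17.0 to 240 ± 8.62 CPM (-0.21) and Calm2 was not called (0.09), though it was without Prr33-gRNA replicate 2 (0.12, edgeR adjusted p = 0.0484) and without scaling factors.

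In the list of myosin folding and turnover, 4 of 7 tested genes were lower and 1 higher. Mylip and Trim63, among the 4 lower genes, encode ubiquitin ligases, and the other lower genes were the chaperones Unc45a and Unc45b. Unc45b, a myosin chaperone of striated muscle, fell from 132 ± 0.981 to 94.8 ± 2.53 CPM (-0.48). Hsp90aa1 rose from 780.0 ± 25.8 to 1110 ± 50.6 CPM (0.51), while Hsp90ab1 (-0.00) and Smyd1 (-0.04) were not called. Of 10 tested regulators 5 were lower and 4 higher. Myogenin (Myog), which drives terminal differentiation genes, counted 1254, 1211 and 1088 CPM in Ctrl-gRNA against 396, 397 and 357 CPM in Prr33-gRNA, a log2 fold change of -1.63. Mef2a fell from 787 ± 13.6 to 552 ± 25.3 CPM (-0.51) and Mef2d from 367 ± 21.6 to 287 ± 6.12 CPM (-0.35). Mef2c, which lay outside the naming rule and was added with its values known, rose from 296 ± 3.00 to 373 ± 20.0 CPM (0.34). Myf5, a factor of undifferentiated myoblasts, rose from 76.4 ± 0.626 to 153 ± 7.74 CPM. Its relatives Myod1 and Myf6 also lay outside the naming rule and were added with their values known. Myod1 fell from 75.6 ± 1.99 to 25.1 ± 1.83 CPM (-1.59), and the rare Myf6 rose from 1.23 ± 0.352 to 4.93 ± 1.11 CPM (1.99). Serum response factor (Srf), whose CArG box is marked in the Myl9 and Myl3 promoters above, also lay outside the naming rule. It was not called (-0.11, edgeR adjusted p = 0.0880), but was called lower without Prr33-gRNA replicate 3 (-0.14, edgeR adjusted p = 0.0463).

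**Figure D5:**
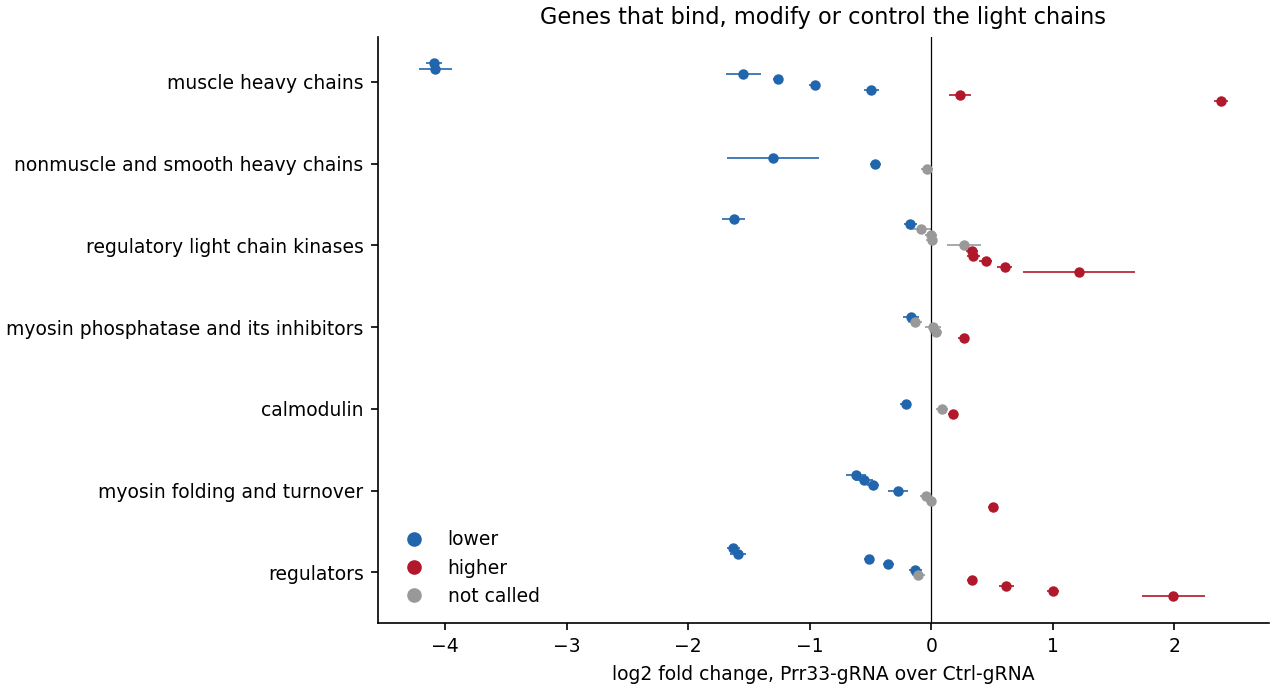
Log2 fold changes (Prr33-gRNA over Ctrl-gRNA) of the tested genes in each partner list, with bars of 1 SE; blue is lower and red higher at an edgeR adjusted p below 0.05, grey is not called. Muscle heavy chains spread from -4.09 to 2.38, and the phosphatase and calmodulin genes stay between -0.21 and 0.27.

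Within the groups, Mylpf, Myl6 and Myl6b shared a low Prr33-gRNA replicate 3, with log2 deviations of -0.196, -0.180 and -0.098 from the group mean. Other genes with the pattern of Mylpf over the 6 libraries were ranked by the root mean square distance of log2 CPM, each taken relative to its own Ctrl-gRNA mean. Of 2364 protein-coding candidates with a mean of 100 CPM or more, the nearest were Rtn2 (distance 0.0391, 167 to 113 CPM), Lgals3 (0.0652, 210 to 141 CPM) and Myom2 (0.0668, 1929 to 1238 CPM), and 32 lay within 0.1. Rtn2 encodes a reticulon, Lgals3 a galectin and Myom2 a protein of the sarcomere's M-band. For Myl12a, the nonmuscle gene with the highest mean FPKM over the 6 libraries, the nearest were Eef2 (0.0193), Sympk (0.0205) and Sqstm1 (0.0214), with log2 fold changes of -0.20 in each. As many as 435 genes lay within 0.1 of Myl12a, so that its pattern was a common one.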

How the data were processed

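Raw gene counts and FPKM values were deposited by the authors. Per the submitters' processing notes, CASAVA, HISAT2 2.0.5 and featureCounts 1.5.0-p3 were used with mm10; strand setting, treatment of multi-mapping reads and annotation release are not given in the sources used here. Positions and lengths of the 10 genes equalled GENCODE M21. The deposited FPKM served for levels between genes. Groups came from the sample titles. Counts were tested in R 4.3.3 with edgeR 4.0.16 (filterByExpr, TMM scaling, robust quasi-likelihood F test, 2 groups of 3, Benjamini-Hochberg threshold 0.05), after tests on simulated data; SE is the absolute log2 fold change over the square root of F. Rows without an Ensembl ID (333, at most 0.252% of counts) name loci and stayed in. With 3 counts as the floor, precision covers counting error only. Alternatives used RLE factors, no scaling, DESeq2 1.42.0, limma 3.58.1 (voom; log2(FPKM + 1) and log2(FPKM + 0.1)), other filters, protein-coding genes alone, a replicate block, each library left out and summed copies. Sequence comparison used Biopython 1.88 and figures matplotlib 3.10.9.

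Members and lists were chosen with earlier results of these data known. By rule, the text names Prr33, the members, tested heavy chain genes, Mylk to Mylk4, up to 4 abundant genes per other list, and the 3 genes nearest in pattern to the top muscle and nonmuscle member; the pseudogenes, Gm49909, Myl7, Myl10, markers and factors in the text are shown for overlap, identity or as checks. Some results on partner genes are not reported here.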

Additional observations from a re-analysis of the deposited data

How the results depend on the processing

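Direction was the same in every alternative for the 9 tested light chain genes, and the call was lost only for Myl12a and Myl12b. Without scaling factors 3 nonmuscle genes remained lower, in place of 5, and 61.8% of all calls were higher in place of 49.0%, with a median of 0.09. Over all genes, 5002 were then higher and 3096 lower. With a replicate block the calls were 3811 higher and 3975 lower, and 4 nonmuscle genes were lower, Myl12b just missing (log2 fold change -0.25). Deviations from the group means showed no sign of pairing by replicate number (correlations -0.01, -0.01 and 0.02). Whether libraries of the same number were handled together is not stated in the labels.

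Shares depend on gene length. Values follow for counts without length, then for principal transcript lengths, chosen after seeing the data. The muscle share was 90.4% and 92.2% in Ctrl-gRNA, 89.5% and 91.9% in Prr33-gRNA. Myl1 took 41.6% and 43.0% of essential chains in Ctrl-gRNA, 47.9% and 49.3% in Prr33-gRNA. Myl4 took 48.9% and 46.3% in Ctrl-gRNA, 42.8% and 40.2% in Prr33-gRNA. Mylpf took 87.8% and 92.7% of regulatory chains in Ctrl-gRNA, 86.4% and 93.0% in Prr33-gRNA. Myl12a took 8.25% and 3.44% in Ctrl-gRNA, 11.1% and 4.71% in Prr33-gRNA. Myl3, with at most 5 counts a library, was too shallow to compare.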
